A study of Ictidomys tridecemlineatus with 15 samples.

Results

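Bipolar cells are the interneurons that carry signals from photoreceptors to amacrine and ganglion cells. They fall into ON types, which depolarise to light through the glutamate receptor Grm6 and the channel Trpm1, and OFF types, which use ionotropic glutamate receptors such as Grik1. Both release glutamate from ribbon synapses, and a separate ON type that serves rods, the rod bipolar cell, is usually recognised by Prkca. The bipolar cells described here are from developing retinas of 13-lined ground squirrels (13LGS), rodents whose photoreceptors are mostly cones, and were taken as all cells that the deposited cell table annotates as bipolar. They number 6324 of the 53394 cells of the series (11.8%).

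The series is a single-cell RNA sequencing time course of whole retinas of captive animals, without any treatment or genetic change, at 10 time points before and after birth, with the day of birth as P0. Bipolar cells were found in 7 libraries: P4, P8a, P8b, P12a, P12b, P17 and P21, named by day, with a letter where a day has 2. None of the 19630 cells of the 7 embryonic libraries was annotated as bipolar, which allows a share of up to 0.0153%. None of the 6920 P1 cells was either, which allows up to 0.0434%. P1 has 2 libraries in the cell table and 1 sample in the labels, so it entered no comparison. Whether a library comes from 1 animal or several is not given in the sources used here, so p-values measure the spread between libraries, which may be partly technical. P17 and P21 have 1 library each and were pooled as the late stage, so age differences between them count as spread.

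The 6 libraries P8a to P21 held enough bipolar cells to compare (6321 cells). The smallest, P8b, held 96 bipolar cells and 276098 UMIs (unique molecular identifiers, each a count of 1 captured molecule), and the largest, P17, held 2096 cells. The median bipolar cell had between 1675 UMIs (P21) and 3797 UMIs (P12b). Gene names were paired with the rows of the count matrix as described in the processing section, and 26587 rows, holding 94.0% of all UMIs, carry a name. Levels are given as CPM, the UMIs of a gene per 1e6 UMIs of all bipolar cells of a library. Few cell barcodes were shared between libraries, at most 8 in any pair.

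The 5 markers expected of bipolar cells were checked against the annotation first, as a description, because the annotation was itself made from these cells' genes. Pooled over the 6 libraries, Vsx1, a bipolar transcription factor, had a level of 737 CPM in bipolar cells, 99.2 CPM in photoreceptor precursors, 61.7 CPM in cones and 13.9 CPM in amacrine cells. Cabp5, a calcium-binding protein of bipolar cells, had 238 CPM in bipolar cells against 52.5 CPM in cones and 6.27 CPM in amacrine cells. Trpm1 was at 211 CPM in bipolar cells and at most 13.6 CPM elsewhere, and Grm6 was at 45.8 CPM and at most 6.33 CPM elsewhere. Prkca was low in bipolar cells (11.4 CPM) and not far above ganglion cells (5.33 CPM). The label thus fits 4 of its 5 markers clearly, and the fifth weakly.

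The share of bipolar cells among all cells of a library grew between P4 and P17. At P4, 3 of 3908 cells were bipolar (0.0768%, 95% Wilson interval 0.0261% to 0.225%). The share was 14.7% (13.5% to 16.1%) in P8a and 7.01% (5.78% to 8.49%) in P8b, 23.1% (21.9% to 24.4%) in P12a and 32.2% (30.7% to 33.7%) in P12b, 39.7% (38.4% to 41.0%) in P17 and 28.2% (27.0% to 29.4%) in P21. The intervals cover counting error only, and libraries of the same age differed by more than that. Over the 7 libraries the share rose with postnatal day (Spearman's rho = 0.85, p = 0.0206; Pearson's r = 0.82, p = 0.0238, exact two-sided permutation tests). With P4 and P21, the 2 libraries farthest in age from the middle one, left out, r was 0.93. Without P4 alone, rho was 0.77 and its exact permutation p was 0.0889. Over the means of the 5 days rho was 0.90 (exact permutation p = 0.0833).

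**Figure D1:**
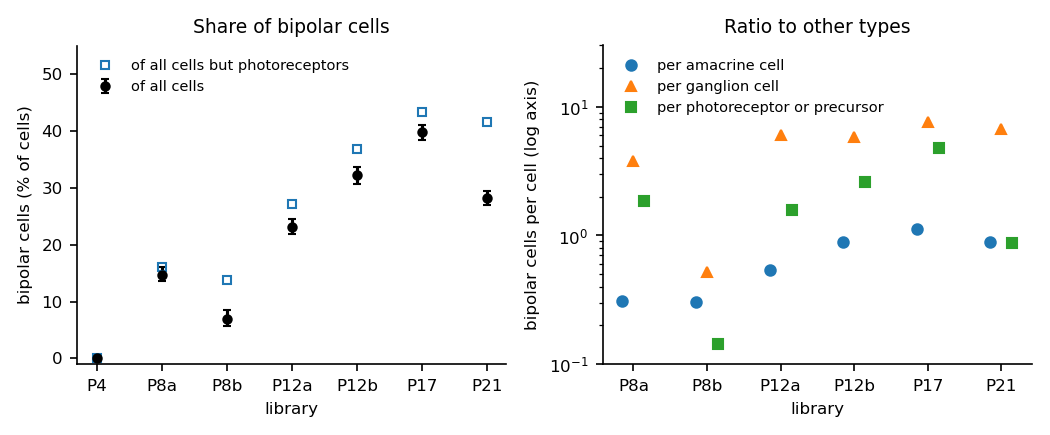
Left, bipolar cells as a percentage of all cells of each postnatal library (filled circles, bars are 95% Wilson intervals) and of all cells other than photoreceptors and their precursors (open squares). Right, bipolar cells per amacrine cell, per ganglion cell and per photoreceptor or precursor in the 6 libraries from P8 on, on a log axis. The share is below 0.1% at P4 and between 23.1% and 39.7% from P12 on, and the fall from P17 to P21 is smaller once photoreceptors are left out (43.3% and 41.5%).

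A share depends on what else a library holds, so bipolar cells were also counted per cell of other types. There were 0.310 and 0.305 bipolar cells per amacrine cell in P8a and P8b, 0.541 and 0.891 in P12a and P12b, 1.12 in P17 and 0.891 in P21. All later libraries thus lay above both P8 libraries. Per ganglion cell the ratio was 3.83 in P8a and only 0.522 in P8b, and between 5.87 and 7.68 in the 4 later libraries. Per photoreceptor or precursor it ranged from 0.143 (P8b) to 4.81 (P17) without a clear order. Over the 6 libraries and adjusted over the 3 ratios, none passed: rho of the log2 ratio with postnatal day was 0.77 per amacrine cell (exact permutation, adjusted p = 0.133), 0.91 per ganglion cell (adjusted p = 0.0667) and 0.24 per photoreceptor or precursor (adjusted p = 0.656). Pearson's r was 0.83, 0.63 and 0.33 in the same order (adjusted p = 0.0667, 0.0667 and 0.533, exact permutation). Among these 6 libraries the 2 farthest in age from the middle are P17 and P21. Without them r was 0.92, 0.71 and 0.60, which compares only the P8 and P12 libraries and says nothing of the late stage.

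Between P8 and the late stage, 4 of 10 tested ON cascade genes rose in sums over all bipolar cells, among them Gng13 and Trpm1. Of 15 tested neurogenic genes 2 fell, Hes6 and Insm1. Such sums also depend on the mix of bipolar subtypes, and its part in the changes was not tested. Of 13497 genes tested, 82 passed an adjusted p of 0.05 in edgeR's quasi-likelihood test on the sums per library (0.608%), of which 51 were higher (0.378%) and 31 lower (0.23%) at P17 and P21. All 82 changed by at least 2-fold. Both P8 libraries were needed for most of these calls: without P8b 4 genes were called, and without P8a 0 were, although 1198 genes then had an unadjusted p under 0.05. Leaving out P17 instead raised the count to 503, P12a to 133 and P12b to 160. The fit with postnatal day as a number in place of the 3 stages called 596 genes (4.42%; 397 or 2.94% higher and 199 or 1.47% lower), among them 78 of the 82.

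Of the 5 label markers 1 passed, Trpm1, and with day as a number 3 did. Its level was 82.0 CPM in P8a, 65.2 CPM in P8b, 196 CPM in P12a, 164 CPM in P12b, 254 CPM in P17 and 313 CPM in P21, so that the ages did not overlap. Such a lack of overlap between P8 and the late libraries was common, at 43.5% of all genes tested (26% higher, 17.5% lower). The log2 fold change from P8 to the late stage was 1.85 ± 0.34 (SE; edgeR adjusted p = 0.0457). It no longer passed without P8a, without P8b or without P21. Cabp5 was at 60.3, 47.1, 82.3 and 51.0 CPM in the P8 and P12 libraries, at 200 CPM in P17 and at 968 CPM in P21. The late libraries lay far above the rest but also far apart, and the difference did not pass (log2 3.36 ± 0.69, adjusted p = 0.0633), although it passed in 7 of 12 alternatives. Vsx1 showed no order with age: it was at 686, 511, 1215, 729, 537 and 693 CPM from P8a to P21, a log2 difference of -0.02 ± 0.37 (adjusted p = 0.992) whose sign changed in 4 of 12 alternatives. Grm6 stayed between 32.1 and 50.9 CPM in every library (log2 0.50 ± 0.36, adjusted p = 0.625), and Prkca went from 1.89 and 3.62 CPM at P8 to 15.2 and 19.9 CPM at P17 and P21 (log2 2.82 ± 0.84, adjusted p = 0.16), which rests on 3 UMIs at P8.

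The ON cascade list holds the receptor, the channel and the proteins that regulate them. Of its 10 tested members 4 rose, 0 fell and 6 did not pass, with a median log2 fold change of 1.82 against 0.07 over all genes tested. The largest rise was that of Gng13, the gamma subunit of the G protein that couples to Grm6. Gng13 had 144 and 116 CPM in P8a and P8b, 302 and 505 CPM in P12a and P12b, 1920 CPM in P17 and 2596 CPM in P21 (log2 4.04 ± 0.41, adjusted p = 0.00363). Every step in age was a step up. Isl1, the LIM-homeodomain factor of ON bipolar cells, rose from 102 and 101 CPM at P8 through 217 and 199 CPM at P12 to 433 and 296 CPM (log2 1.78 ± 0.33, adjusted p = 0.0434). It no longer passed without P8a, without P8b or without P17. Gpr179, the scaffold of the RGS proteins that shut the cascade off, went from 18.9 and 32.6 CPM at P8 to 156 and 106 CPM in the late libraries (log2 2.42 ± 0.41, adjusted p = 0.0344). With day as a number, without P8a or without P8b, Gpr179 did not pass. Pcp2, which modulates this G protein and was the most abundant gene of the list, was at 2559 and 1221 CPM at P8, 1762 and 2503 CPM at P12, and 8882 and 8192 CPM at P17 and P21 (log2 2.09 ± 0.43, adjusted p = 0.0633). The late libraries stood well clear of all earlier ones, but the change did not pass, although it passed in 8 of 12 alternatives.

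**Figure D2:**
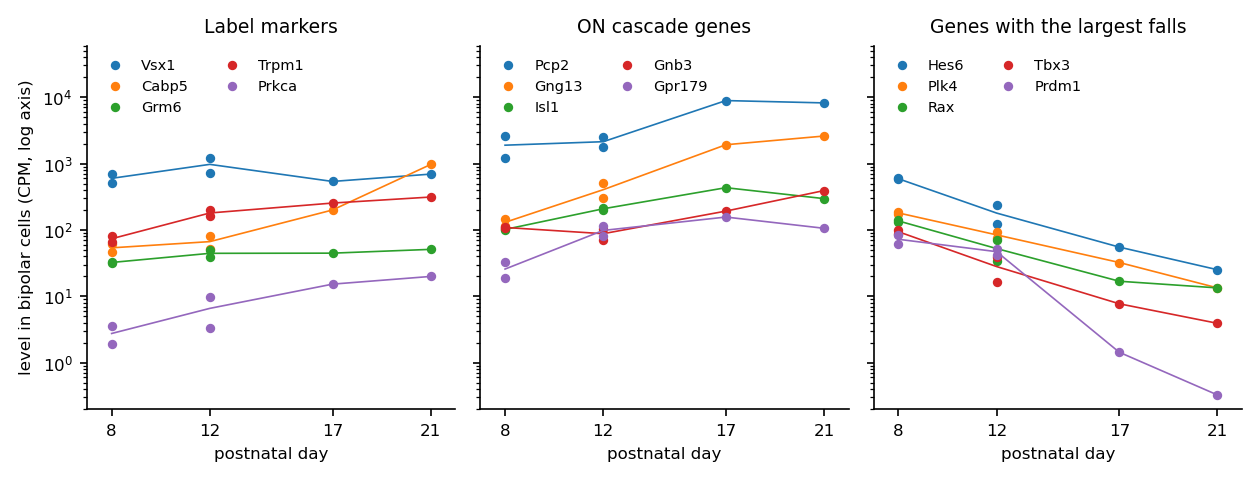
Level in bipolar cells (CPM, log axis) against postnatal day of the 5 label markers, 5 genes of the ON cascade list and 5 of the genes with the largest falls. Each point is 1 library and lines join the means of each day. Gng13 and Trpm1 lie higher at P17 and P21 than in any P8 library, Vsx1 shows no order with age, and Hes6, Plk4, Rax, Tbx3 and Prdm1 lie lower at each later age.

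None of the 10 tested members of the OFF bipolar list passed, and 5 had an unadjusted p under 0.05. Its members went both ways, from -1.88 to 1.99, with a median log2 fold change of -0.24. Grik1, a kainate receptor subunit of OFF bipolar cells, was at 75.4 and 79.7 CPM at P8, 172 and 190 CPM at P12, 186 CPM in P17 and 447 CPM in P21 (log2 1.99 ± 0.44, adjusted p = 0.0735; passed in 5 of 12 alternatives). Fezf2, a transcription factor of OFF types, was at 394 and 359 CPM at P8 and at 202 and 334 CPM in the late libraries (log2 -0.54 ± 0.37, adjusted p = 0.608). Lhx3, a LIM-homeodomain factor, was at 304 and 261 CPM at P8, 207 and 152 CPM at P12 and 94.2 and 94.4 CPM late (log2 -1.64 ± 0.33, adjusted p = 0.0585). Its late libraries lay lowest, below those of P12, and the difference missed the threshold but passed in 6 of 12 alternatives.

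Among the 17 tested bipolar transcription factors 3 rose and 0 fell, with a median of -0.28. Besides Isl1 these were Sebox, a homeobox gene found in rod bipolar cells of other rodents, and Nfia, a nuclear factor I protein. Sebox was at 2.83 and 0 CPM in P8a and P8b, at 16.8 and 14.1 CPM at P12, and at 44.0 CPM in P17 and 229 CPM in P21 (log2 5.86 ± 1.05, adjusted p = 0.0404). It had only 3 UMIs at P8, and the ratio of pooled levels, late over P8, was 48.9 (95% counting interval 16.7 to 237). Nfia went from 5.66 and 14.5 CPM at P8 to 117 and 81.6 CPM in the late libraries (log2 3.54 ± 0.48, adjusted p = 0.0132). The most abundant member of the list, Neurod4, a proneural factor, ranged from 1373 to 1744 CPM (log2 0.07 ± 0.29, adjusted p = 0.959). Otx2, which photoreceptors and bipolar cells share, went from 719 and 656 CPM at P8 to 490 and 351 CPM late (adjusted p = 0.327). Of the 4 tested rod bipolar genes, Sebox rose and the others did not pass.

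Genes of ion channels, receptors and calcium handling mostly had positive changes that did not pass singly. In the ion channel list 1 of 15 tested members rose: Scn1a, a voltage-gated sodium channel, went from 13.2 and 7.24 CPM at P8 and 27.2 and 25.0 CPM at P12 to 207 and 137 CPM (log2 3.80 ± 0.44, adjusted p = 0.00626). In the calcium-binding list 1 of 12 rose, and its median was 2.0, while 8 rose with day as a number. The gene was Cabp2, a regulator of ribbon-synapse calcium channels, which was at 30.2 and 25.4 CPM at P8 and at 133 and 318 CPM late (log2 2.92 ± 0.49, adjusted p = 0.0344). Pcp4, a calmodulin regulator, was at 103 and 120 CPM at P8 and at 336 CPM in P17 and 1101 CPM in P21 (adjusted p = 0.0624; passed in 8 of 12 alternatives).

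No gene of the ribbon synapse list passed (0 of 19 tested, 18 of them with a positive change), and its median was 0.87. With day as a number 6 of the 19 rose. Cplx4 and Cplx3, complexins of ribbon terminals, were already at 1079 and 1000 CPM (Cplx4) and at 404 and 384 CPM (Cplx3) at P8. In P21 they were at 1971 CPM and 1854 CPM. In P17 Cplx3 was at only 563 CPM in the ON-like and 723 CPM in the OFF-like cells described below. Over the alternatives that kept the stages its log2 fold change was 0.64 to 2.21, and that of Cplx4 0.62 to 0.996. None of the 9 tested GABA and glycine receptor genes passed, against 5 with day as a number, and their median was 1.40. Among 33 tested adhesion and wiring genes 0 passed, with a median of 0.92. Pcdh7, a protocadherin, was at 102 and 97.8 CPM at P8 and between 196 and 253 CPM in the 4 later libraries (adjusted p = 0.149).

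The neurogenic list moved in the opposite direction. Of 15 tested members 2 fell and 0 rose, and the median log2 fold change was -2.14. With day as a number 8 fell. Hes6, a Hes family member of newly born neurons, was at 582 and 598 CPM in P8a and P8b, 236 and 123 CPM at P12, 55.1 CPM in P17 and 25.1 CPM in P21 (log2 -3.92 ± 0.47, adjusted p = 0.00627). The ages were fully separated, in order. Insm1, a zinc finger factor of differentiating neurons, fell from 53.7 and 32.6 CPM to 6.10 and 5.55 CPM (log2 -3.03 ± 0.55, adjusted p = 0.0422). In the list of immature neuron genes, of cytoskeleton and growth cones, 1 of 19 fell, the growth cone protein Dpysl3, from 76.4 and 76.1 CPM at P8 to 25.3 and 14.7 CPM (log2 -1.98 ± 0.37, adjusted p = 0.048). Dpysl3 did not pass with every sum thinned to the smallest, or without P8a, P8b or P21. The abundant Tuba1a, an alpha-tubulin, was at 5559 CPM in P8a but 2456 CPM in P8b, and at 1900 and 1761 CPM late (adjusted p = 0.301). The median of the list was -0.67. In the cell cycle list 1 of 10 fell, Ube2c, a ubiquitin-conjugating enzyme of mitosis, from 33.0 and 58.0 CPM to 2.33 and 0.653 CPM (log2 -4.76 ± 0.83, adjusted p = 0.0398).

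Several of the genes with the largest falls are regulators of early retinal cells. Prdm1, which favours photoreceptor over bipolar fate in the mouse, was at 83.0 and 61.6 CPM at P8 and at 41.7 and 52.4 CPM at P12, and then fell to 1.44 CPM in P17 and 0.327 CPM in P21 (log2 -6.24 ± 0.55, adjusted p = 0.00363). The fall came after P12, and the step from P12 to the late stage passed by itself (log2 -5.52, adjusted p = 0.00288). Rax, a homeobox gene of retinal progenitors and photoreceptors, fell from 132 and 141 CPM at P8 to 16.9 and 13.4 CPM (log2 -3.21 ± 0.42, adjusted p = 0.0111). Tbx3, a T-box repressor, fell from 101 and 86.9 CPM to 7.71 and 3.92 CPM (log2 -4.05 ± 0.53, adjusted p = 0.0111). Plk4, a kinase of centriole duplication, fell from 187 and 174 CPM to 32.3 and 13.4 CPM (log2 -3.03 ± 0.42, adjusted p = 0.0142). Spon2, a secreted matrix protein, fell from 69.8 and 32.6 CPM to 3.23 and 1.63 CPM (log2 -4.49 ± 0.67, adjusted p = 0.0207), and the gene ENSSTOG00000033887, which has no name, from 111 and 79.7 CPM to 7.53 and 0 CPM (adjusted p = 0.0422). This unnamed gene did not pass with DESeq2, without P8a or without P8b.

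Among factors that the study links to cone formation, 1 of 11 tested fell, Prdm1, and 0 rose. Their median was -1.10. The others with the highest levels, Otx2, Neurod1, Onecut2 and Pou2f1, did not pass. The study describes Prdm1, Otx2 and Neurod1 as promoting rods as well as cones. The list as drawn up also held Casz1, described there as favouring rods and limiting cones. The list was chosen by the study with these libraries in hand and is no independent evidence of a direction.

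The largest rises were of genes close to absent at P8. Pde1a, a calcium-dependent phosphodiesterase, had 0 UMIs in both P8 libraries, 7.06 and 5.68 CPM at P12, 115 CPM in P17 and 141 CPM in P21. Set against 3 UMIs over the P8 group, this was at least 55.4-fold higher (adjusted p = 0.00363). Kcnh6, a voltage-gated potassium channel, had 1 UMI at P8, 5.71 and 5.82 CPM at P12 and 58.3 and 58.1 CPM late, a ratio of pooled levels of 77.9 (95% counting interval 13.9 to 3081, adjusted p = 0.00626). Cntn4, a cell adhesion molecule, went from 3.77 and 0 CPM to 96.5 and 130.0 CPM (log2 5.18 ± 0.61, adjusted p = 0.00626). Cga, the common alpha subunit of pituitary hormones, had 1 UMI at P8 and 45.9 and 86.5 CPM late (ratio 80.6, interval 14.4 to 3191). Adarb2, an RNA editing family member, had 2 UMIs at P8 and 39.6 and 75.4 CPM late (ratio 35.0, interval 9.63 to 290), and Klf9, a transcription factor induced by thyroid hormone and glucocorticoid, also had 2 and went to 46.6 and 126 CPM (ratio 50.1, interval 13.8 to 414).

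The eighth of these genes was a hemoglobin chain, listed as HBG1-containing, with 0 UMIs at P8 and 190 and 147 CPM late, at least 77.8-fold higher. HBA1, another hemoglobin gene and 1 of 3 tested members of the microglia and blood list, rose with it (log2 4.19 ± 0.43, adjusted p = 0.00363). The amacrine cells of P17 and P21 held HBA1 as well, at 170 and 90.0 CPM. The part of free blood RNA in these libraries was not tested.

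**Figure D3:**
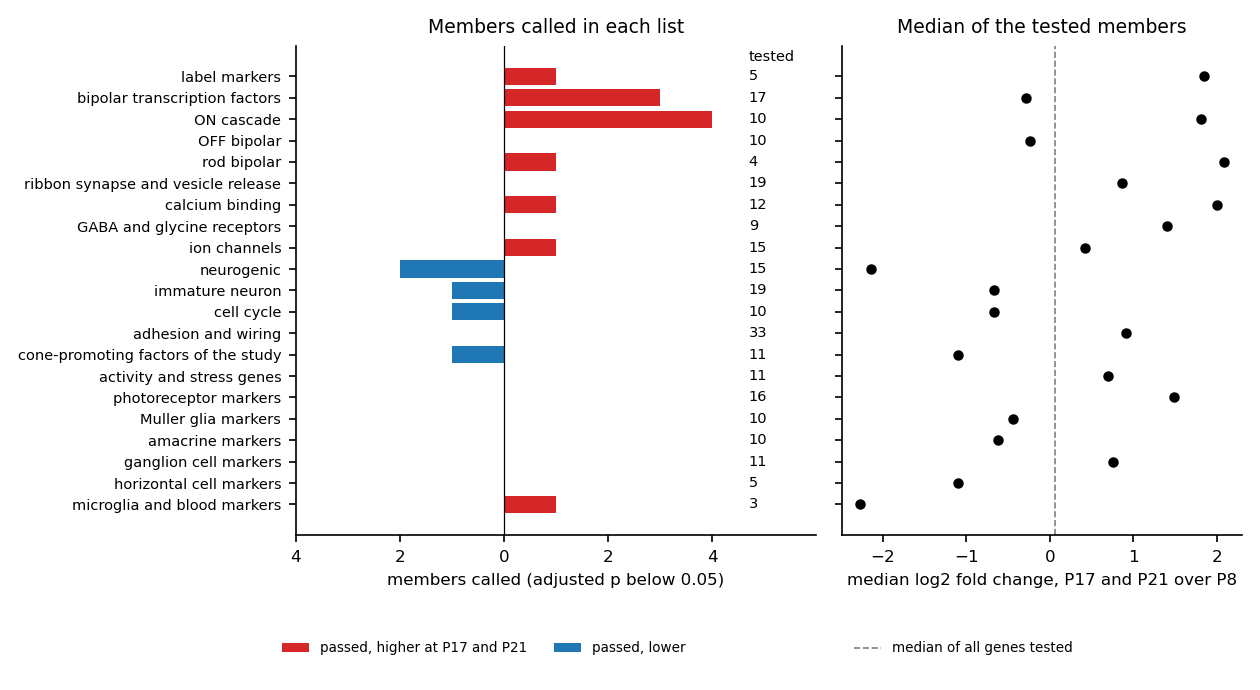
Left, number of tested members of each gene list that passed in the late stage (P17 and P21) against P8, higher to the right and lower to the left, with the number tested. Right, median log2 fold change of the tested members, with genes at 0 UMIs in a group set to their bound of 3 UMIs, beside the median of all genes tested (dashed line, 0.07). The ON cascade list has 4 members higher and the neurogenic list 2 lower.

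Transcripts of other cell types were present in bipolar cells at low levels. The summed level of the 24 named photoreceptor markers was between 554 and 793 CPM in the 5 libraries up to P17 and 3042 CPM in P21, with the cone arrestin Arr3 at 879 CPM there. In the same order it was 391 to 797 CPM and 1621 CPM in amacrine cells, and 453 to 710 CPM and 1012 CPM in ganglion cells. Levels in P21 thus moved together in all 3 types. None of the 16 tested photoreceptor markers passed in bipolar cells between the stages, but 6 rose with day as a number, and Arr3 passed in 8 of 12 alternatives. The rod transcription factor Nrl was at most 1.68 CPM in any library of bipolar cells. The 13 named amacrine markers summed to between 597 and 1623 CPM in bipolar cells and between 4759 and 7816 CPM in amacrine cells, the 11 Müller glia markers to between 163 and 514 CPM in bipolar cells, and the 12 ganglion cell markers to between 88.4 and 421 CPM. The 6 horizontal cell markers summed to between 283 and 544 CPM, with Prox1 at 188 to 421 CPM. The part of such transcripts in the changes above was not tested. Of 12 named activity and stress genes, 0 of 11 tested passed.

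The first step of the course, from P8 to P12, gave no call at this number of libraries. Of the same 13497 genes 0 passed in edgeR (0%), 576 had an unadjusted p under 0.05 (4.27%), and DESeq2 called 6, all lower at P12. The 15 tested neurogenic genes all had lower fitted levels at P12. From P12 to the late stage 21 genes passed (0.156%), 18 of them higher (0.133%) and 3 lower (0.0222%). The comparison shares the P17 and P21 libraries with that of P8 and the late stage. Gng13 rose by 2.49 (adjusted p = 0.0348), Scn1a by 2.72 (adjusted p = 0.0146) and Nfia by 2.67 (adjusted p = 0.0219) on the log2 scale in this second step. Gabrr3, a GABA-C receptor subunit typical of bipolar terminals, rose by 4.01 (adjusted p = 0.0219). Gng13, Scn1a, Nfia and Gabrr3 no longer passed without P12a or without P12b, and Gng13 and Gabrr3 also not without P8a or without P8b. Without P12a or without P12b 7 genes were called, and without P17 449 were.

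To separate what changed in bipolar cells from what changed in the whole library, the change from P8 to the late stage was compared with that of the amacrine cells of the same 6 libraries, in 1 fit with the library as a block. Of 15883 genes 403 differed (2.54%; 2036 at an unadjusted p under 0.05), 228 with a more positive change in bipolar cells (1.44%) and 175 with a more negative one (1.1%). Kcnh6 was at 12.9 and 21.5 CPM at P8 and at 25.9 and 29.5 CPM late in amacrine cells, a far smaller change than in bipolar cells (difference of log2 changes 5.39 ± 0.75, adjusted p = 3.37e-05). Cntn4 in amacrine cells was at 17.3 and 31.6 CPM at P8 and at 25.3 and 22.1 CPM late (difference of log2 changes 5.05 ± 0.53, adjusted p = 4.61e-07). ENSSTOG00000034661, an unnamed gene in the matrix row before Cntn4, rose in bipolar cells from 2.83 and 0 CPM to 39.1 and 67.9 CPM and went in amacrine cells from 45.8 and 41.7 CPM to 14.6 and 22.9 CPM (difference 5.87 ± 0.49, adjusted p = 1.26e-08). Igfbp5, an insulin-like growth factor binding protein, differed by 5.18 ± 0.44, chiefly through amacrine cells, where it went from 191 and 94.8 CPM to 22 and 17.2 CPM.

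On the negative side, Lhx2, a LIM-homeodomain gene of progenitors and Müller glia, was at 73.5 and 47.1 CPM in bipolar and 76.3 and 60.3 CPM in amacrine cells at P8. At the late stage it was at 11.5 and 6.53 CPM in bipolar and 104 and 119 CPM in amacrine cells (difference -3.34 ± 0.31). The 2 cell types thus began alike and ended apart. Fibcd1, a receptor for acetylated sugars, went from 87.7 and 54.3 CPM to 10.0 and 11.8 CPM in bipolar cells and was at 58.7 and 182 CPM in late amacrine cells (difference -3.40 ± 0.33). Pam, a peptide-amidating enzyme, went from 34.9 and 43.5 CPM to 14.5 and 13.4 CPM in bipolar cells and from 8.66 and 7.18 CPM to 22.2 and 57.2 CPM in amacrine cells (difference -3.38 ± 0.48). Spon2, near absent from amacrine cells throughout, had a difference of -3.90 ± 0.61.

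**Figure D4:**
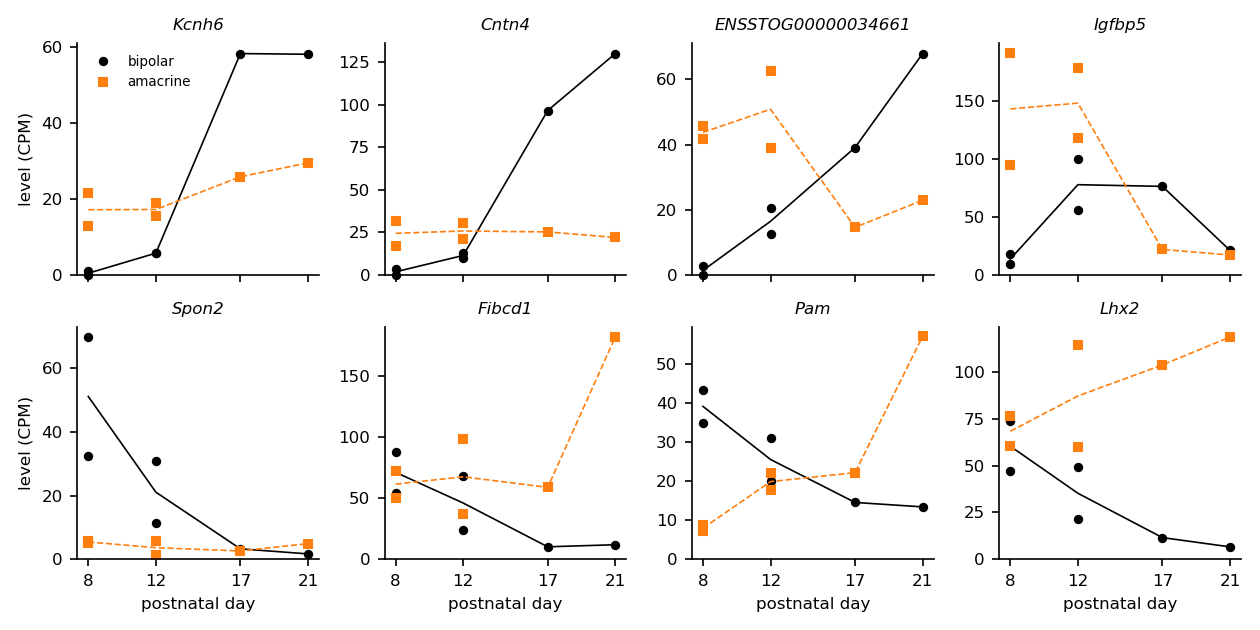
Level (CPM) against postnatal day of the 4 genes with the most positive and the 4 with the most negative difference in change between bipolar cells (circles, solid lines) and amacrine cells (squares, dashed lines) of the same libraries. Points are libraries and lines join the means of each day. Lhx2 starts at like levels in both types and ends at 6.53 CPM in bipolar and 119 CPM in amacrine cells in P21.

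By list, the ON cascade had 3 of 10 tested members with a more positive change than in amacrine cells and 0 with a more negative one (Gnb3, Pcp2 and Isl1). Without P8b these no longer passed, and without P8a or with DESeq2 Gnb3 and Isl1 did not. Gnb3 also did not pass with every sum thinned to the smallest. Pcp2, whose change in bipolar cells alone did not pass, differed by 1.77 (adjusted p = 0.000504). The bipolar transcription factors had 5 members more positive, among them Otx2 (1.20) and Nfia (3.92), and 3 more negative, of 17 tested. For Otx2 this came with a fall in amacrine cells from 37.5 and 46.0 CPM to 14.8 and 7.30 CPM. Adhesion and wiring genes had 7 of 36 more positive and 2 more negative, with a median of 0.88 against 0.07 over all genes tested. Among the 7 were Pcdh7, Pcdh9, Pcdh10, Ntng1, Slit2 and Nrxn3. Without P8a, all of these named genes but Pcdh7 no longer passed. Immature neuron genes had 0 of 20 more positive and 4 more negative (Stmn2, Stmn3, Tuba1a and Dpysl3). Of these only Stmn2 still passed without P8a.

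For other genes the difference from amacrine cells did not pass. Hes6 fell in amacrine cells from 317 and 430 CPM to 38.8 and 21.5 CPM, and the difference in change was -0.24 (adjusted p = 0.689). Gng13, at far lower levels there, went from 12.3 and 21.5 CPM to 141 and 113 CPM, a difference in log2 change of 0.94 (adjusted p = 0.191), which passed in 4 of 11 alternatives. Klf9 reached 30.7 and 138 CPM in late amacrine cells (difference -0.53, adjusted p = 0.936), and without P8b the difference changed sign to 3.94.

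Against the ganglion cells of the same libraries, 252 of 14495 genes differed (1.74%), 154 with a more positive change in bipolar cells (1.06%) and 98 with a more negative one (0.676%). Gng13 (2.05), Isl1 (2.28) and Scn1a (2.59) had a more positive change in bipolar cells, as had 7 of the adhesion and wiring genes and 0 of them a more negative one. Among these 7 were Pcdh7, Pcdh9, Pcdh10, Ntng1, Slit2 and Tenm2. Without P8a, Gng13 and all of these named adhesion and wiring genes but Pcdh7 no longer passed. The comparison shares its bipolar libraries with the one against amacrine cells.

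Clustering as planned could not resolve bipolar subtypes across ages, because 10 of 13 clusters drew over 80% of their cells from 1 library and none held cells of all 6. With each library centred on its own mean, a step chosen after seeing this, the bipolar cells fell into 4 clusters, each with cells of every library. What defines a cluster is a description with no test. Cluster 1 (2331 cells) was enriched in 3 ON cascade genes, Isl1, Pcp2 and Gnb3, and cluster 3 (611 cells) in 4, Isl1, Gnb3, Trpm1 and Gpr179. Both are called ON-like. Cluster 1 was also enriched in 5 neurogenic genes, and cluster 3 in 2 genes of the OFF list, Hcn4 and Vsx1. Cluster 4 (510 cells) was enriched in 9 genes of the OFF list, among them Grik1, Irx5, Irx6, Lhx3 and Erbb4, and in 4 photoreceptor markers, and is called OFF-like. The largest, cluster 2 (2869 cells), was enriched in only 2 genes of the OFF list, Grik1 and Fezf2, and stays unnamed.

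Levels within the clusters show how the markers divide the cells. Pcp2 was at 15550 CPM in cluster 1 and at 541 to 1405 CPM in the others. Trpm1 was at 368 and 570 CPM in clusters 1 and 3 against 97.6 and 234 CPM in clusters 2 and 4. Grm6 divided them less, at 67.3 and 64.1 CPM against 34.3 and 45.4 CPM. Rgs11, also of the ON cascade list, was at 32.0 and 32.4 CPM against 19.6 and 31.1 CPM. Grik1 was at 326 and 298 CPM in clusters 2 and 4 against 8.44 and 7.43 CPM in clusters 1 and 3. Vsx1 did not follow this division: it was at 120 CPM in cluster 1, 775 CPM in cluster 2, 1607 CPM in cluster 3 and 2036 CPM in cluster 4. Scgn, which encodes secretagogin, was highest in cluster 3 at 1195 CPM, and Gng13 was alike in all, from 1071 to 1545 CPM. No cluster reached 3 genes of the rod bipolar list. Prkca was highest in cluster 1, at 31.1 CPM, and Sebox in cluster 3, at 145 CPM.

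**Figure D5:**
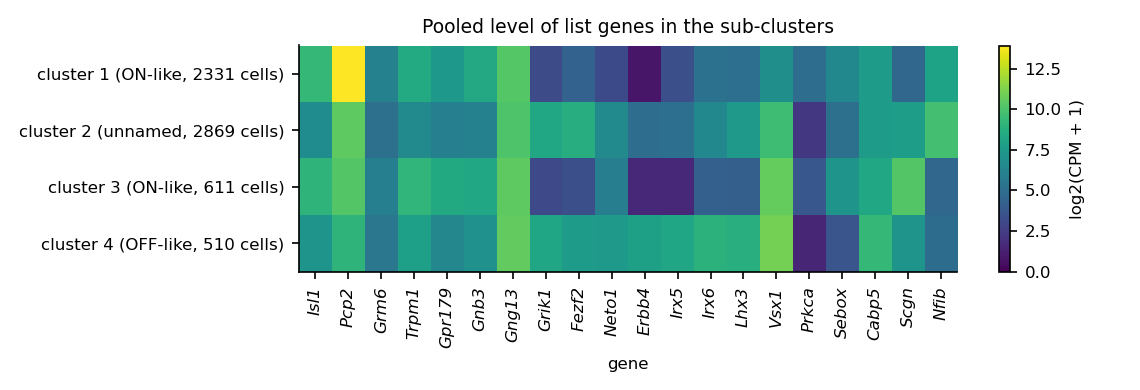
Pooled level, as log2(CPM + 1), of list genes in the 4 sub-clusters found after centring each library. Isl1, Trpm1, Gpr179 and Gnb3 are higher in clusters 1 and 3, Grik1 and Fezf2 in clusters 2 and 4, and Vsx1 is lowest in cluster 1.

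The changes with age could be followed inside the clusters, without a test. The clusters were formed from levels of variable genes in these same cells. Pcp2 and Pde1a are among the genes that define cluster 1, and Grik1 is enriched in cluster 2. Their contrasts between clusters thus partly follow from how cells were assigned, and their changes within a cluster may do so too. In cluster 1, which had 139 cells in P8a and 18 in P8b, Pcp2 was at 5692 and 2671 CPM at P8 and at 20212 and 20376 CPM at P17 and P21, whereas in cluster 2 (252 and 71 cells at P8) it stayed between 911 and 1910 CPM in all 6 libraries. In cluster 3 it went the other way, from 5353 and 278 CPM at P8 (18 and 2 cells) to 998 and 384 CPM late, and in cluster 4 it was between 425 and 735 CPM. Gng13 was at 43.4 and 54.5 CPM at P8 and 1549 and 2224 CPM late in cluster 1, and at 179 and 120 CPM and then 2276 and 2812 CPM in cluster 2. It was thus higher late in ON-like and in Grik1-rich cells alike. Hes6 was lower late in both, from 858 and 627 CPM to 73.2 and 36.0 CPM in cluster 1 and from 470 and 600 CPM to 40.3 and 20.2 CPM in cluster 2. Vsx1 within cluster 1 was at 119 and 164 CPM at P8, 460 and 264 CPM at P12 and 20.1 and 24 CPM late. The level over all bipolar cells does not show this fall. Over clusters 1 and 3 together, both ON-like, Vsx1 was at 273 and 248 CPM at P8 and at 396 and 411 CPM late. Cluster 3, where Vsx1 was high, held 4.05% and 2.08% of bipolar cells at P8 and 13.6% and 7.37% late. The part of this split in the fall within cluster 1 was not tested. Pde1a was at 269 and 382 CPM in late cluster 1 and at most 13.7 CPM in any library of the other clusters. Grik1 in cluster 2 went from 106 and 84.4 CPM to 387 and 834 CPM. Cluster sizes are given without a test, since genes that define cluster 1, such as Pde1a and Scn1a, themselves rose with age. ON-like cells were 35.4% and 20.8% of bipolar cells at P8, 35.2% and 34.4% at P12, and 59.4% and 51.6% late. Cluster 2 held 56.8% and 74.0% at P8 and 32.7% and 38.9% late. The part of these shares in the changes over all bipolar cells was not tested.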

How the data were processed

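Whole 13LGS retinas were profiled with 10x Chromium 3′ v3.1 libraries, from methanol-fixed cells or from nuclei of frozen retina. Which library is which is not given in the sources used here. Per the study's methods, the authors aligned reads to the HiC_Itri_2 assembly with CellRanger 3.1.0 and annotated clusters in Seurat 4.0.4, and the submitters' processing notes also list GRCm38. The authors deposited raw UMI counts for each gene in each cell, whole numbers without normalization, and a table of cells. Its embedding coordinates were not used. The authors' cell filters and any doublet removal are not stated. No doublets were removed here. A library is a time point and the suffix of the cell name, which does not show the replicate number.

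The deposited name list (30265 names) has no row numbers. Its order follows the matrix (34181 rows), and it is 131 names longer than the 30134 rows with a UMI in at least 5 cells. Names were placed with 1463 marker genes of other cell types, whose tabulated shares of cells with a UMI each matched 1 row. When markers were left out in turn, 1246 of 1246 came back to the same row. Rows that could not be placed without doubt have no name.

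UMIs were summed per library and type (at least 10 cells) and tested with edgeR 4.0.16 in R 4.3.3 (filterByExpr, TMM factors 0.908 to 1.06, glmQLFit, glmQLFTest, Benjamini-Hochberg over all genes tested, threshold 0.05). The SE is the log2 fold change over the square root of F. On simulated data the test of P8 against the late stage recovered 42.3% of genes changed by log2 2 and 1.01% of those changed by log2 1, with 3 false calls in 13074 genes, so a gene that did not pass may still have changed. CPM are plain and the fits use TMM. Depth, size factors (DESeq2 1.42.0), the filter, high-UMI cells and each library were varied. Shares and ratios were tested by exact permutation in scipy 1.17.1. Clusters used scanpy 1.11.5 (2000 variable genes, 30 components, 15 neighbours, Leiden). A marker counted as enriched at 10 CPM and 1.5 times the mean of the other clusters.

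The cells and gene lists were chosen with earlier results of these data known. Genes named are the 5 label markers, the 8 largest rises and falls and the 4 most positive and negative differences from amacrine cells among genes past the threshold with a mean of 20 CPM, non-overlapping libraries and no LOC identifier, and up to 4 of the highest genes of each list. Other list members and genes named with cluster or second-step values were chosen after their values were seen. Some list members are counted but not reported here by name.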

Additional observations from a re-analysis of the deposited data

Results flagged for a closer look

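The change of bipolar cells with age, from P8 to P17 and P21, differed from that of amacrine cells of the same libraries in 403 genes and from that of ganglion cells in 252 genes, each by a test of the difference itself. In bipolar minus amacrine cells the log2 difference was 5.87 for ENSSTOG00000034661, 5.39 for Kcnh6, 5.18 for Igfbp5, 5.05 for Cntn4, -3.90 for Spon2, -3.40 for Fibcd1, -3.38 for Pam and -3.34 for Lhx2. Without P8a, Kcnh6, Spon2 and Pam no longer passed. Pam also did not pass with every sum thinned to the smallest, and the other 5 passed under every alternative run.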

How the results depend on the processing

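Of 4019 log2 values of 106 genes under the alternatives, 177 changed sign. In none of the 177 did the value pass in either fit (smallest adjusted p 0.177 and 0.214 in edgeR or DESeq2). Of the values the text gives, 9 of 939 did so. From P8 to the late stage these were Vsx1 (0.0093 without a filter, and -0.30 to 0.39 with 1 library left out), Pou2f1 (0.15 thinned, 0.11 without high-UMI cells, -0.40 to 0.031 with 1 library left out) and Neurod4 (-0.011 to 0.16), and against amacrine cells Klf9 (-1.11 to 3.94). From P8 to the late stage 82 genes were called, 338 with DESeq2, 630 of 27034 without a filter, 596 with day as a covariate, and 0 to 503 with 1 library left out. From P8 to P12 it was 0, with DESeq2 6, without a filter 34, and 0 to 4 with 1 library left out. From P12 to the late stage it was 21, with DESeq2 159, without a filter 472, with every sum thinned to the smallest 12, and 7 to 449 with 1 library left out. The difference from amacrine cells held 403 genes, 170 with DESeq2, 608 without a filter, 74 of 6633 thinned, and 40 to 1153 with 1 library left out (lowest without P8a, highest without P17). That from ganglion cells held 252, with DESeq2 108, and 95 to 832 with 1 library left out, at the same 2 libraries. Where a left-out library leaves 1 in a stage, its spread is taken from the others. The cause of these shifts was not tested.

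The rho of the bipolar share with day was 0.77 to 0.97 with 1 library left out. It no longer passed without P4, P8a, P8b or P12a. Without high-UMI cells (above 2 times the median UMI count for that type in the library) the ratios per amacrine and per ganglion cell passed, each with rho = 0.91 (exact permutation, adjusted p = 0.0333). With 1 library left out rho was 0.62 to 0.95 per amacrine cell, 0.87 to 0.95 per ganglion cell and -0.21 (without P8b, a change of sign) to 0.74 per photoreceptor. In the planned clustering 0 cluster shares passed, at every setting run and with each library left out. At its main setting 10 of 13 clusters drew over 80% of their cells from 1 library, so these shares say little about age. Over the means of the 5 days rho was 0.90 and did not pass (exact permutation p = 0.0833). No paired analysis was possible because the cell names carry no replicate numbers that would tie a library of 1 age to one of another; the comparisons of cell types within libraries do have the library as a block. P8b, with 276098 UMIs, limits what can be seen at P8.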
